A study of Mus musculus with 9 samples.

Results

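The type I interferon-stimulated genes examined here are 39 genes of the mouse, taken by symbol from a deposited table of read counts for 54456 genes. All 39 were found in the table and all 39 had enough counts to be tested, as did 26081 genes in all. They were divided by role into 15 antiviral effectors, 6 sensors of foreign RNA or DNA with their cofactors, 3 transcription factors, 3 genes of the ISG15 system, 3 ADP-ribosyltransferases and 9 other induced genes. The counts come from bulk sequencing of polyadenylated RNA from mouse skin that the labels describe as AA-like lesions, in a study of immune-mediated alopecia (hair loss caused by immune attack on hair follicles). There were 3 libraries from lesions treated with microneedles loaded with IL-2 and CCL22 (the loaded device), 3 from lesions treated with empty microneedles (the empty device) and 3 from untreated lesions. IL-2 is a growth factor for T cells, and CCL22 is a chemokine for cells that bear the receptor CCR4. All 3 groups carried the lesion, so no library came from skin without it. The labels used here do not state how the lesions were raised, the mouse strain, the time after treatment or whether each library came from its own animal. The p-values below therefore measure the spread between libraries, which may be technical.

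Type I interferons are secreted proteins that bind the receptor pair IFNAR1 and IFNAR2. The kinases JAK1 and TYK2 then act on STAT2, which joins IRF9 in the complex ISGF3 and switches on genes that carry an interferon-stimulated response element (ISRE) near their start. The products of these genes block steps in the life of a virus, sense its nucleic acids, or feed back on the pathway itself. Many of them are also induced by type III interferons and by interferon-gamma, which acts on a different element, the GAS, and which is a known cytokine of alopecia areata. In skin, keratinocytes, fibroblasts and resident and recruited immune cells can all express them.

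Promoter sequences of the members are shown because the ISRE is the element of the genes that ISGF3 switches on. The members in which it was found run from Ifit1, the lowest of all, to Stat2, which differed little. RefSeq promoters of the assembly GRCm38.p6 (250 bases before to 50 bases after the annotated start) were at hand for 28 of the 39 members. A script searched both strands for the ISRE core GAAANNGAAA, which reads TTTCNNTTTC on the other strand. In the lines that follow, stretches around the match are written 5′ to 3′ on the strand of the gene, and capitals mark every base that belongs to a match.
Ifit1: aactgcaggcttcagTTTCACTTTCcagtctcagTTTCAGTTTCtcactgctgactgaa
Ifit3: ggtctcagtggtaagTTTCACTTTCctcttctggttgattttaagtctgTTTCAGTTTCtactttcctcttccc
Ifit3b: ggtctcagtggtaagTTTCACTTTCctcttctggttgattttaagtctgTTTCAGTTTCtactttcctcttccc
Oas1a: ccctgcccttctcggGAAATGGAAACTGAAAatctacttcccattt
Bst2: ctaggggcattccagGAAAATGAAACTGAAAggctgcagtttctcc
Ddx60: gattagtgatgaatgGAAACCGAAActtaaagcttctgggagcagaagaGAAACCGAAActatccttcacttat
Isg15: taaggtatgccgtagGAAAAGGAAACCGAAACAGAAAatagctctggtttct
Stat2: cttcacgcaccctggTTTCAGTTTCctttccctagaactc
The stretch of Ifit1 lies at chr19:34640770-34640828 on the plus strand of GRCm38.p6, and its nearer match ends 75 bases before the annotated start. The stretches of Ifit3 (chr19:34583358-34583431, plus strand) and Ifit3b (chr19:34607754-34607827, plus strand) hold the same 74 letters, so the 2 neighbouring genes cannot be told apart by this element. The stretch of Oas1a lies at chr5:120907515-120907560 on the minus strand, that of Bst2 at chr8:71537572-71537617 on the minus strand and that of Ddx60 at chr8:61928019-61928092 on the plus strand. Isg15 (chr4:156200860-156200911, minus strand) holds 3 overlapping matches, Oas1a and Bst2 hold 2 overlapping matches each, and Stat2 (chr10:128270261-128270300, plus strand) holds 1.

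The ISRE core was present in the promoters of 13 of the 28 members, which is 46.4%, against 1079 of 27025 genes (3.99%) with a promoter of the same length. The longer form GAAANNGAAACT was present in 7 members (25%), against 82 genes (0.303%). The GAS pattern TTCNNNGAA was present in 5 members (17.9%), against 2582 genes (9.55%). Beside the genes printed above, Oas3, Rsad2, Ifih1, Eif2ak2 and Trim30a held the core. No match was found in this window for Ifi44, Samd9l, Irf7, Irf9, Trim25 and 10 further members. A match is a run of letters and not a measured binding site, and nothing here measures binding.

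Total counts ran from 85962714 to 96740589 per library. Mitochondrial genes held 3.78 to 3.90% of counts with the loaded device, 3.31 to 3.42% with the empty device and 4.56 to 4.72% in untreated skin, which separates the groups, and the part of this difference in the results below was not tested. The median squared difference between libraries of 1 group was 2.03 to 4.72 times that of counting noise (9 pairs). Between libraries of different groups it was 18.4 to 48.1 times (27 pairs). Levels below are CPM, counts scaled to library size and corrected between libraries (TMM), and they are compared between groups and never between genes, because the authors' counting took in introns. A gene is said to be called, or to have risen or fallen, where edgeR's quasi-likelihood test gave a Benjamini-Hochberg adjusted p under 0.05 over all tested genes. Skin was recognisable by keratinocyte markers, whose 8 genes summed to 28465 to 30320 CPM with the loaded device, 47512 to 49364 CPM with the empty device and 40695 to 42148 CPM in untreated skin. In a bulk sample, fewer cells of a type and less RNA per cell cannot be told apart.

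The interferon-stimulated genes were lower in every role after the loaded device than in lesions left untreated. Of the 39 genes, 38 fell and 0 rose, while of all tested genes 23.3% fell and 19% rose (42.3% called in all). Of the 39, 25 fell by at least 1.5-fold, against 6.04% of all genes. The median log2 fold change of the members was -0.69, beside -0.014 for all tested genes. Summed over the members, the level was 440, 454 and 475 CPM with the loaded device, 532, 528 and 541 CPM with the empty device, and 734, 688 and 681 CPM in untreated skin. The 3 groups did not overlap in this sum, in which genes with many counts weigh most. Trim25 alone had a mean of 51.9 CPM with the loaded device, 80.6 CPM with the empty device and 59.7 CPM in untreated skin. Between the devices 20 of the 39 members were not called. Every loaded library lay below every untreated library for all 39 members, Sp100 included, which missed the call. The same held for 28.1% of all tested genes.

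**Figure D1:**
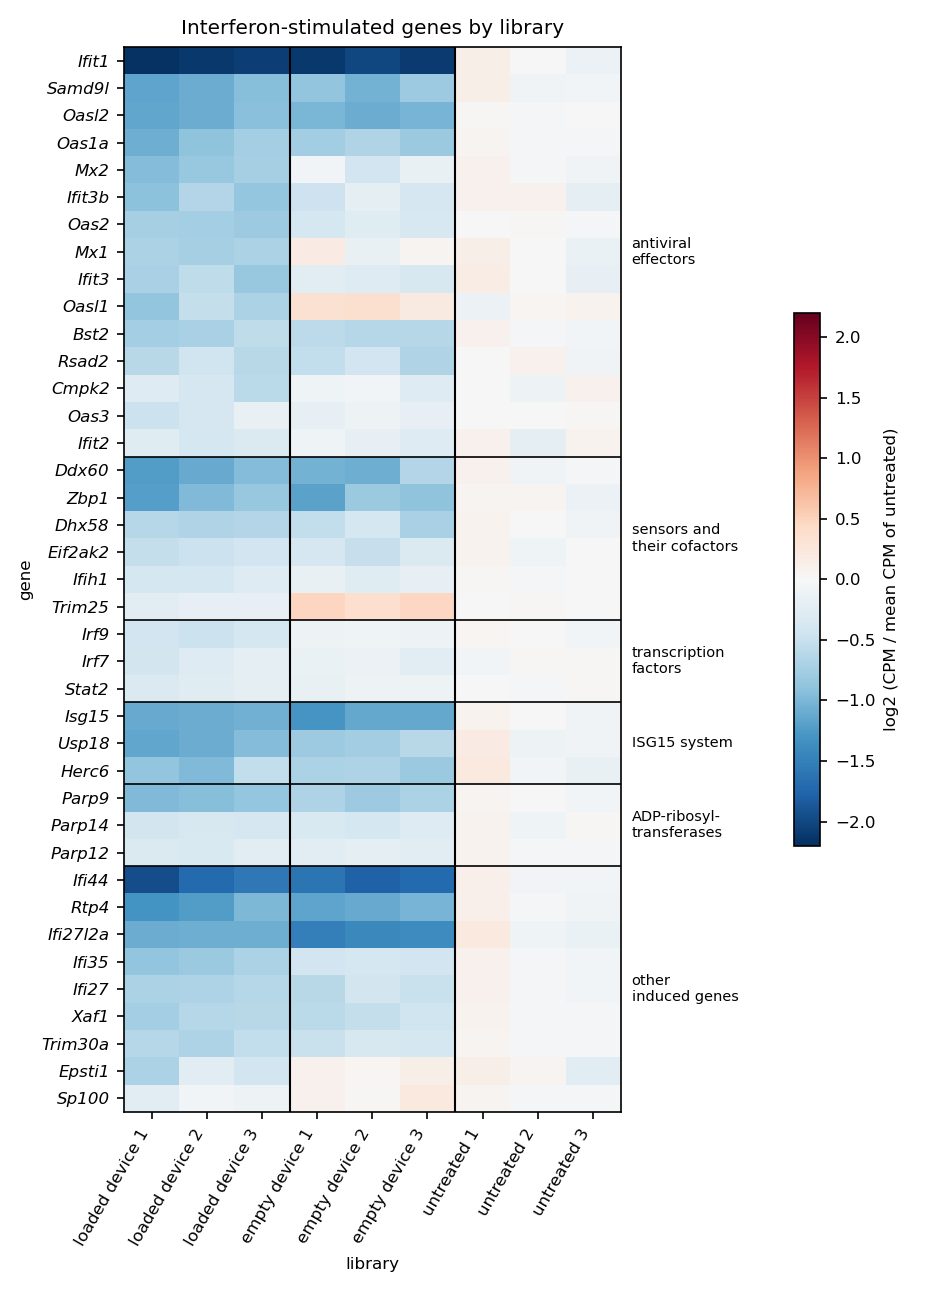
Heat map of the 39 interferon-stimulated genes (rows, grouped by role) in the 9 libraries (columns: loaded device, empty device, untreated). Colour is the log2 ratio of CPM to the mean of the untreated libraries. The median over members is -0.73, -0.68 and -0.65 in the loaded libraries, -0.45, -0.39 and -0.38 in the empty-device libraries, and 0.075, -0.023 and -0.052 in the untreated libraries.

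The antiviral effectors all fell with the loaded device, 15 of 15, with a median log2 fold change of -0.71. The lowest was Ifit1, which binds viral RNA that lacks the host's cap methylation (chr19:34618271-34627409, plus strand, mm39). Ifit1 had 3.24, 3.35 and 3.47 CPM with the loaded device, 3.35, 3.66 and 3.40 CPM with the empty device, and 16.1, 14.5 and 13.4 CPM in untreated skin. All 6 treated libraries were far below the untreated ones, and the loaded and empty devices overlapped. Relative to untreated skin, Ifit1 was 4.36-fold lower after the loaded device, a log2 fold change of -2.12 ± 0.074 (SE, adjusted p = 2.73e-18). With the empty device it was 4.22-fold lower, a log2 fold change of -2.08 ± 0.074 (adjusted p = 3.42e-18). Samd9l, a restriction factor of poxviruses that lowers translation, had 13.3, 13.9 and 15.5 CPM with the loaded device, 16.1, 14.4 and 17.0 CPM with the empty device, and 32.3, 28.0 and 28.6 CPM in untreated skin. Samd9l likewise separated both treated groups from untreated skin, at a log2 fold change of -1.06 ± 0.070 with the loaded device and -0.90 with the empty one.

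Ifit2, a sister gene of Ifit1, had the smallest fold change among the effectors. It had 3.19, 2.93 and 3.05 CPM with the loaded device, 3.59, 3.37 and 3.14 CPM with the empty device, and 4.10, 3.33 and 4.02 CPM in untreated skin. The loaded libraries stayed just below the untreated ones, and the empty-device libraries overlapped both. Its log2 fold change was -0.32 ± 0.095 with the loaded device (adjusted p = 0.00704) and -0.18 with the empty one (adjusted p = 0.116). The call with the loaded device was lost when libraries were scaled by size alone (adjusted p = 0.108).

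The oligoadenylate synthetases, which make the signal that activates RNase L, and their relatives did not keep step. Oas1a fell to 3.79, 4.31 and 4.74 CPM with the loaded device and to 4.72, 5.03 and 4.52 CPM with the empty device, against 8.34, 7.87 and 7.78 CPM in untreated skin. Oasl2, a synthetase-like gene, had 9.36, 9.75 and 10.96 CPM with the loaded device, 10.4, 9.71 and 10.2 CPM with the empty device, and 21.2, 20.5 and 20.5 CPM in untreated skin. In both genes the treated groups lay well below untreated skin and overlapped each other. Oas2 stepped down in order, with a log2 fold change of -0.76 for the loaded device against untreated skin, -0.34 for the empty device against untreated skin and -0.42 for the loaded against the empty device, all called. Oas3 fell with the loaded device (log2 fold change -0.33), whereas its value with the empty device was -0.16 at an adjusted p of 0.0823.

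Oasl1, an inhibitor of Irf7 translation in the mouse, took another course. It had 0.637, 0.811 and 0.714 CPM with the loaded device, 1.46, 1.47 and 1.33 CPM with the empty device, and 1.06, 1.20 and 1.22 CPM in untreated skin. All 3 empty-device libraries were the highest and all 3 loaded libraries the lowest. Oasl1 fell with the loaded device against untreated skin (log2 fold change -0.69 ± 0.154, adjusted p = 0.000579). Between the devices it was 1.97-fold lower with the loaded one (log2 fold change -0.98 ± 0.148, adjusted p = 3.23e-06). Its log2 fold change for empty device over untreated skin was 0.29 at an adjusted p of 0.0912, and it was called higher without empty-device replicate 3 (adjusted p = 0.0428) and with scaling by upper quartile or by library size alone (adjusted p = 0.0348 and 0.0211).

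The dynamin-like GTPases Mx1 and Mx2, which trap incoming viral complexes, fell with the loaded device and were not called with the empty one. Mx1 had 2.63, 2.59 and 2.64 CPM with the loaded device, 4.86, 3.83 and 4.47 CPM with the empty device, and 4.65, 4.30 and 3.88 CPM in untreated skin. Its empty-device and untreated libraries overlapped, and the loaded libraries lay below both. The log2 fold change was -0.71 ± 0.098 for the loaded device against untreated skin and -0.74 ± 0.096 against the empty device (adjusted p = 8.61e-07 and 2.43e-07). For empty device over untreated skin it was 0.04 (adjusted p = 0.785). Mx2 gave -0.83 and -0.62 with the loaded device, against untreated skin and against the empty device, both called, and -0.21 for the empty device (adjusted p = 0.0639), which was called lower without empty-device replicate 1 (adjusted p = 0.0204).

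The remaining effectors also fell with the loaded device. Ifit3 and Ifit3b, near copies whose reads can be shared, fell by 0.70 and 0.80 on the log2 scale. Rsad2 (viperin, which makes a chain-terminating nucleotide) and its neighbour Cmpk2 (a mitochondrial nucleotide kinase) fell by 0.55 and 0.41. Bst2 (tetherin, which holds budding virus at the cell surface) fell by 0.67. The call of Cmpk2 was lost without loaded-device replicate 3 (adjusted p = 0.0725), without untreated replicate 3 (adjusted p = 0.0524) and with scaling by library size alone (adjusted p = 0.0801).

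**Figure D2:**
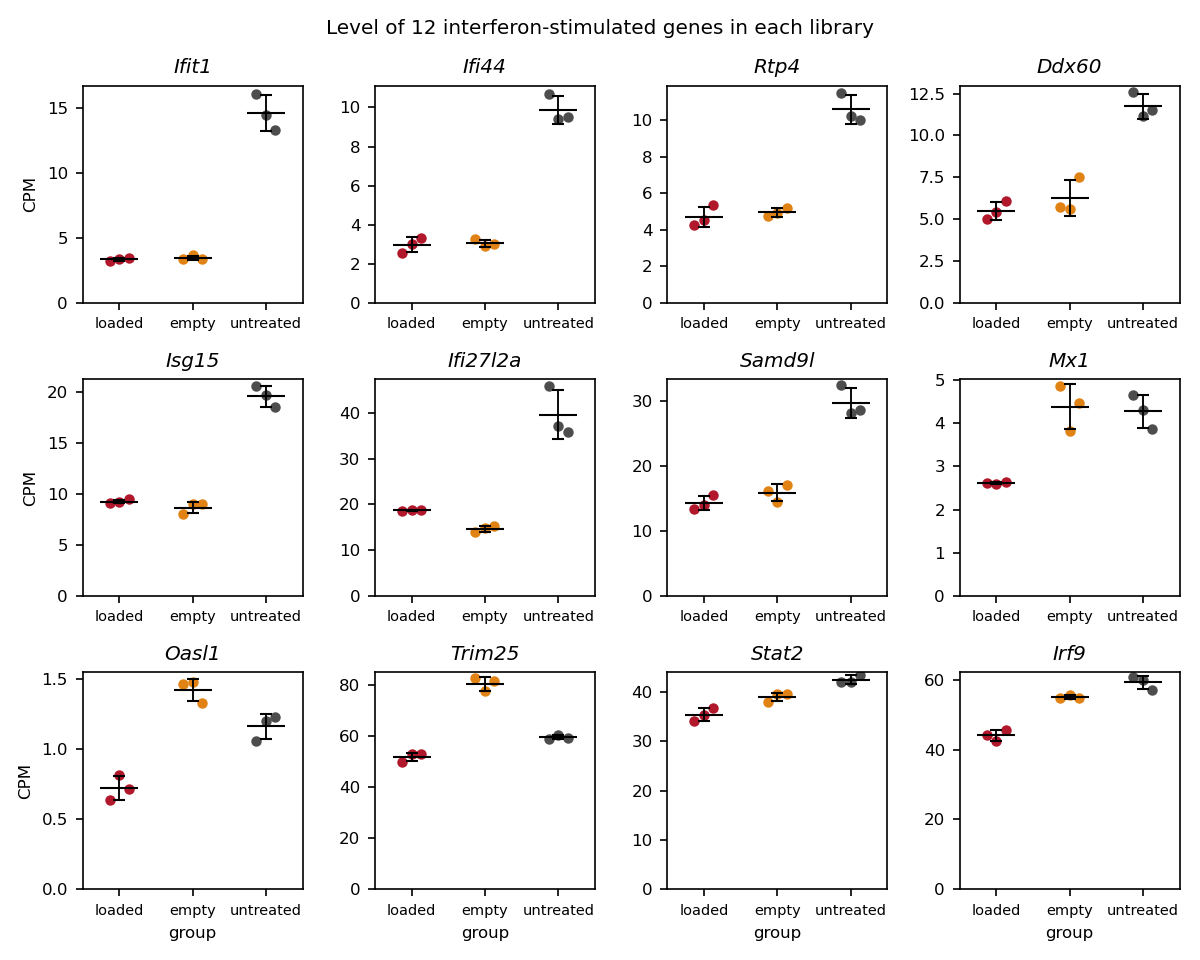
CPM of 12 interferon-stimulated genes in each library, 1 panel per gene, with the loaded device left, the empty device in the middle and untreated skin right. Points are libraries and bars are the mean ± SD of 3 libraries. Ifit1, Ifi44 and Isg15 show both devices well below untreated skin. Mx1 and Oasl1 show the loaded libraries below both other groups. Trim25 is highest with the empty device, between 77.5 and 82.8 CPM.

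The sensors and their cofactors also all fell with the loaded device, 6 of 6, with a median log2 fold change of -0.56. Ifih1 encodes MDA5, a sensor of long double-stranded RNA. It had 25.4, 25.1 and 27.1 CPM with the loaded device, 29.4, 27.5 and 29.2 CPM with the empty device, and 33.4, 32.2 and 33.3 CPM in untreated skin. The 3 groups stepped up in that order with no overlap, and each step was called, at a log2 fold change of -0.35 ± 0.041 for the loaded device against untreated skin, -0.20 for the empty device against untreated skin and -0.15 for the loaded against the empty device.

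Dhx58 (LGP2, a regulator of RIG-I-like sensing) had 3.72, 3.64 and 3.66 CPM with the loaded device, 3.96, 4.37 and 3.51 CPM with the empty device, and 6.06, 5.72 and 5.45 CPM in untreated skin. Eif2ak2 (PKR, a kinase that halts translation on double-stranded RNA) had 15.5, 16.0 and 16.5 CPM with the loaded device, 17.1, 15.6 and 17.8 CPM with the empty device, and 23.4, 20.8 and 22.3 CPM in untreated skin. For both genes the devices overlapped and lay below every untreated library. Their log2 fold changes with the loaded device were -0.64 ± 0.084 and -0.47 ± 0.053, and those with the empty device were -0.54 and -0.40.

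Zbp1, a sensor of Z-form nucleic acid that can trigger necroptosis, had 2.43, 2.86 and 3.16 CPM with the loaded device, 2.48, 3.20 and 3.04 CPM with the empty device, and 5.86, 5.85 and 5.16 CPM in untreated skin. Ddx60, a helicase linked to RIG-I signalling, had 5.0, 5.44 and 6.07 CPM with the loaded device, 5.71, 5.58 and 7.52 CPM with the empty device, and 12.6, 11.2 and 11.5 CPM in untreated skin. Both separated all treated from all untreated libraries, and the third empty-device library was the highest of the treated ones for Ddx60. Their log2 fold changes were -0.995 ± 0.101 and -1.09 ± 0.103 with the loaded device and -0.95 and -0.90 with the empty one.

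Trim25, the ubiquitin ligase that assists RIG-I (chr11:88890202-88911119, plus strand, mm39), stood apart from the other sensors. It had 49.995, 52.8 and 52.9 CPM with the loaded device, 82.8, 77.5 and 81.5 CPM with the empty device, and 59.0, 60.6 and 59.4 CPM in untreated skin. The empty-device libraries were the highest, the loaded ones the lowest, and no groups overlapped. Trim25 rose with the empty device against untreated skin (log2 fold change 0.43 ± 0.034, adjusted p = 1.26e-11), the highest value of the 39 genes in that comparison. Between the devices Trim25 was 1.55-fold lower with the loaded one (log2 fold change -0.63 ± 0.034, adjusted p = 9.39e-15). Against untreated skin it fell by 0.20 on the log2 scale (adjusted p = 2.02e-05), a call lost when libraries were scaled by size alone (log2 fold change -0.07, adjusted p = 0.123). Among keratinocyte markers, Krt10 took the same order of groups, with a log2 fold change of 0.49 for the empty device against untreated skin, -0.87 for the loaded against the empty device and -0.39 when loaded skin is set against untreated skin. The 8 keratinocyte markers were split with the empty device against untreated skin (median -0.09): Lor and Krt1 also rose, by 0.88 and 0.42, while Krt14, Dsg3, Krtdap and Krt5 fell by 0.83, 0.52, 0.44 and 0.12. Whether keratinocyte content has a part in the value of Trim25 was not tested.

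The 3 transcription factors all fell with the loaded device, with a median log2 fold change of -0.30. Stat2, part of ISGF3, had 34.1, 35.3 and 36.7 CPM with the loaded device, 38.1, 39.5 and 39.6 CPM with the empty device, and 42.1, 42.0 and 43.5 CPM in untreated skin. Irf9, its DNA-binding partner, had 44.2, 42.5 and 45.6 CPM with the loaded device, 54.7, 55.7 and 54.9 CPM with the empty device, and 60.8, 59.9 and 57.2 CPM in untreated skin. For both genes the 3 groups stepped up in that order without overlap. Stat2 fell by 0.26 on the log2 scale with the loaded device against untreated skin (adjusted p = 8.09e-07) and Irf9 by 0.43 (adjusted p = 7.68e-11).

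Irf7, which amplifies interferon production, had 15.1, 16.5 and 17.5 CPM with the loaded device, 18.2, 18.5 and 17.0 CPM with the empty device, and 19.3, 20.6 and 20.5 CPM in untreated skin. Both treated groups lay below untreated skin and overlapped each other. The log2 fold change was -0.30 ± 0.052 with the loaded device (adjusted p = 3.12e-05). For empty device over untreated skin the log2 fold changes were -0.12 for Stat2, -0.11 for Irf9 and -0.17 for Irf7, all called, but none of the 3 calls held without empty-device replicate 3 (adjusted p = 0.0701, 0.208 and 0.18) or with scaling by library size alone (adjusted p = 0.70, 0.963 and 0.321). Irf9 and Irf7 each overlap a neighbouring gene, Rnf31 and Phrf1, by a short stretch, so part of a count there can belong to either.

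The ISG15 system comprises Isg15, a ubiquitin-like protein, Herc6, the ligase that attaches it in the mouse, and Usp18, the protease that removes it and that also restrains the interferon receptor. All 3 fell with both devices. Isg15 had 9.12, 9.21 and 9.47 CPM with the loaded device, 8.0, 9.04 and 9.0 CPM with the empty device, and 20.6, 19.7 and 18.5 CPM in untreated skin. The loaded libraries lay slightly above the empty-device ones, and both groups far below untreated skin. The log2 fold change was -1.08 ± 0.056 with the loaded device and -1.17 ± 0.057 with the empty one, and between devices it was 0.09 ± 0.060 (adjusted p = 0.224).

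Usp18 had 4.71, 4.90 and 5.41 CPM with the loaded device, 6.0, 6.13 and 6.84 CPM with the empty device, and 11.8, 9.65 and 9.86 CPM in untreated skin. Its 3 groups were in order without overlap, with a log2 fold change of -1.06 ± 0.080 for the loaded device against untreated skin and -0.34 against the empty device (adjusted p = 0.00145). Herc6 had 2.24, 2.08 and 2.80 CPM with the loaded device, 2.52, 2.55 and 2.31 CPM with the empty device, and 4.69, 3.88 and 3.61 CPM in untreated skin. Its devices overlapped, at log2 fold changes of -0.77 and -0.72 for the loaded and the empty device against untreated skin.

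The ADP-ribosyltransferases, which modify proteins of host and virus, fell with both devices, 3 of 3. Parp9, partner of the ubiquitin ligase Dtx3l whose gene it overlaps, had 26.2, 26.8 and 28.2 CPM with the loaded device, 31.96, 29.5 and 31.7 CPM with the empty device, and 53.3, 50.8 and 49.2 CPM in untreated skin. The log2 fold change of Parp9 was -0.92 ± 0.041 with the loaded device, -0.72 with the empty device and -0.20 between them (adjusted p = 0.00023). Parp14 had 20.0, 20.8 and 20.6 CPM with the loaded device, 20.9, 20.2 and 21.8 CPM with the empty device, and 27.7, 24.6 and 26.9 CPM in untreated skin. Parp12 and Parp14 had log2 fold changes of -0.29 and -0.37 with the loaded device and -0.23 and -0.33 with the empty one. For Parp12 the CPM was 18.1, 17.8 and 19.2 with the loaded device, 19.3, 19.6 and 18.9 with the empty device, and 23.7, 22.2 and 21.7 in untreated skin.

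Among the 9 other induced genes, 8 fell with the loaded device. Ifi44, a cytoplasmic protein with antiviral activity, had 2.56, 3.01 and 3.31 CPM with the loaded device, 3.24, 2.89 and 3.01 CPM with the empty device, and 10.7, 9.41 and 9.49 CPM in untreated skin. After Ifit1 it had the lowest fold change of the 39, 3.32-fold lower with the loaded device (log2 fold change -1.73 ± 0.085, adjusted p = 2.15e-15) and 3.24-fold lower with the empty one. Rtp4, a chaperone of receptors that also binds viral replication complexes, had 4.27, 4.54 and 5.33 CPM with the loaded device, 4.73, 4.91 and 5.19 CPM with the empty device, and 11.5, 10.2 and 10.01 CPM in untreated skin. Both genes had the 2 devices overlapping, well below every untreated library. The log2 fold change of Rtp4 was -1.17 ± 0.077 with the loaded device and -1.10 with the empty one.

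Ifi27l2a, a small membrane protein, had 18.7 CPM in each of the 3 loaded libraries, 13.97, 14.8 and 15.2 CPM with the empty device, and 45.8, 37.1 and 35.9 CPM in untreated skin. Here the empty device was lowest, the loaded device next and untreated skin highest, with no overlap. Ifi27l2a fell with the loaded device (log2 fold change -1.08 ± 0.080, adjusted p = 6.65e-07) and with the empty one (-1.43 ± 0.082, adjusted p = 3.86e-08). It was the single member that rose with the loaded against the empty device (log2 fold change 0.35 ± 0.085, adjusted p = 0.00598).

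Sp100, a component of PML nuclear bodies, had 11.9, 13.7 and 13.2 CPM with the loaded device, 15.1, 14.5 and 16.5 CPM with the empty device, and 14.9, 13.98 and 13.8 CPM in untreated skin. The loaded libraries were the lowest, by a small margin. Its log2 fold change of -0.14 ± 0.058 against untreated skin was not called (adjusted p = 0.0629), and it was called without loaded-device replicate 2 (adjusted p = 0.0337). Against the empty device Sp100 fell by 0.25 on the log2 scale (adjusted p = 0.000687), a call kept in all 18 alternative fits. For empty device over untreated skin its value was 0.11 (adjusted p = 0.103), called higher in 6 of the 18. Ifi27, Ifi35, Xaf1 and Trim30a fell with the loaded device by 0.67, 0.79, 0.66 and 0.61 on the log2 scale, and Epsti1 by 0.44.

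**Figure D3:**
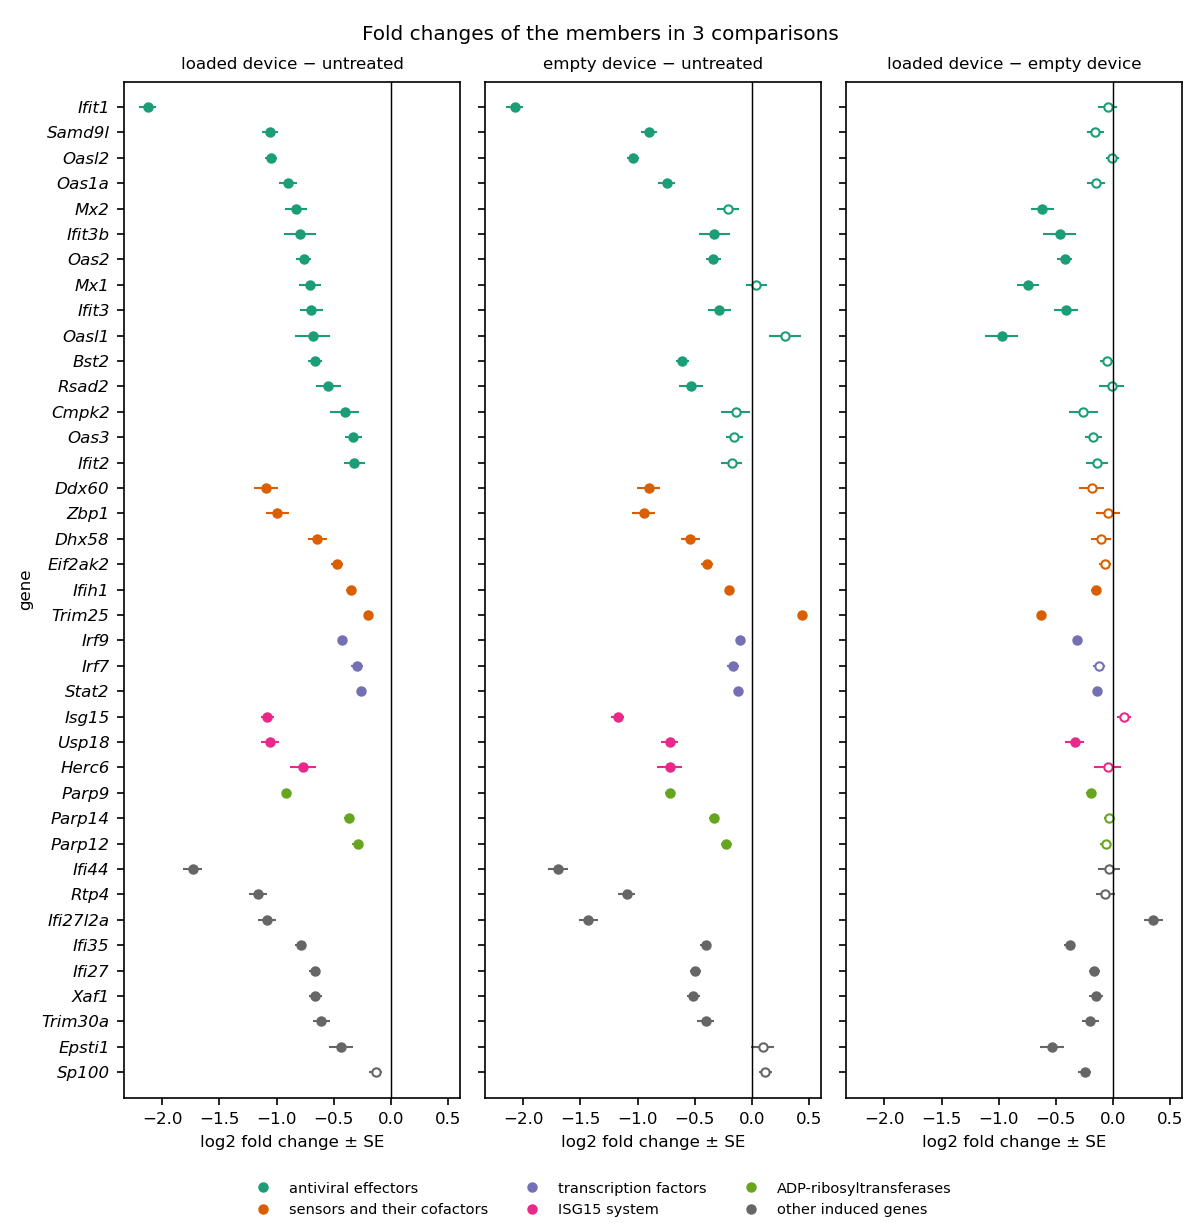
Log2 fold change ± SE of each of the 39 genes, by role, in 3 panels for the loaded device against untreated skin, the empty device against untreated skin and the loaded against the empty device. Filled points passed an adjusted p of 0.05. In the first panel 38 points are filled and lie below 0. The second has 30 filled points below 0 and Trim25 above it, and the third has 18 below and Ifi27l2a above.

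The empty device, which carried no drug, was also followed by lower levels of most interferon-stimulated genes. Against untreated skin 30 of the 39 genes fell and 1, Trim25, rose, while of all tested genes 28.1% fell and 20.2% rose (48.3% called in all). A fall of at least 1.5-fold was seen for 14 members, against 9.36% of all genes, and a rise of that size for 0 members, against 2.76%. The median log2 fold change of the members was -0.41, beside -0.016 for all genes. All empty-device libraries lay below all untreated libraries for 30 members, against 31.1% of all genes, and above them for 2 (Trim25 and Oasl1), against 23.5%. By role, 9 of 15 effectors fell, 5 of 6 sensors fell and 1 rose, and all of the transcription factors (3), the ISG15 system (3) and the ADP-ribosyltransferases (3) fell, with 7 of the 9 other genes. These counts do not rank the roles by size of fall. The median log2 fold change was -0.33 for the effectors and -0.12 for the transcription factors. With upper-quartile scaling Stat2, Irf9 and Irf7 were not called (adjusted p = 0.25, 0.414 and 0.122). The DESeq2 Wald test did not call them either (adjusted p = 0.0615, 0.124 and 0.0537). The 8 members without a call were Ifit2, Mx1, Mx2, Oas3, Oasl1, Cmpk2, Epsti1 and Sp100. Both comparisons with untreated skin share the same 3 untreated libraries, so each gene's values in them are not independent.

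Set against the empty device, the loaded device gave a smaller and more mixed difference. Of the 39 genes 18 fell and 1 rose, while of all tested genes 18.5% fell and 22.9% rose (41.4% called in all). The median log2 fold change of the members was -0.15, beside 0.015 for all genes. By role, 6 of 15 effectors, 2 of 6 sensors, 2 of 3 transcription factors, 1 of 3 ISG15 genes, 1 of 3 ADP-ribosyltransferases and 6 of 9 other genes fell. At least 1.5-fold lower were Oasl1, Mx1, Trim25 and Mx2, which is 4 of 39 genes (10.3%), against 4.95% of all genes, and 0 members were at least 1.5-fold higher, against 4.21%. All loaded libraries lay below all empty-device libraries for 18 members, against 22.7% of all genes, and above them for 2 (Ifi27l2a and Isg15), against 28.1%. Irf9 fell by 0.32 (adjusted p = 1.14e-08) and Stat2 by 0.14 (adjusted p = 0.00211), while Irf7 had a log2 fold change of -0.13 at an adjusted p of 0.0512. Ifi35, Oas2, Ifit3, Ifit3b and Epsti1 fell by 0.38, 0.42, 0.41, 0.47 and 0.53 on the log2 scale. The call of Ifit3b was lost without loaded-device replicate 1 (adjusted p = 0.0503) or empty-device replicate 2 (adjusted p = 0.0534).

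Several of the genes with the lowest fold changes against untreated skin were not called between the devices. The log2 fold change of the loaded over the empty device was -0.05 ± 0.084 for Ifit1, -0.04 ± 0.095 for Ifi44, -0.07 ± 0.082 for Rtp4, -0.01 ± 0.058 for Oasl2 and -0.05 ± 0.107 for Zbp1 (SE). None of these was called, which does not show that the devices act alike on them. In order of group means, untreated skin was highest for 34 of the 39 genes, the empty device for 5 (Trim25, Mx1, Oasl1, Epsti1 and Sp100) and the loaded device for 0. The loaded device was lowest for 37 genes and the empty device for 2, Isg15 and Ifi27l2a. Over all tested genes untreated skin was highest for 35.5%, the empty device for 34.5% and the loaded device for 30%. The loaded device was lowest for 29.7% of them and the empty device for 38.3%.

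**Figure D4:**
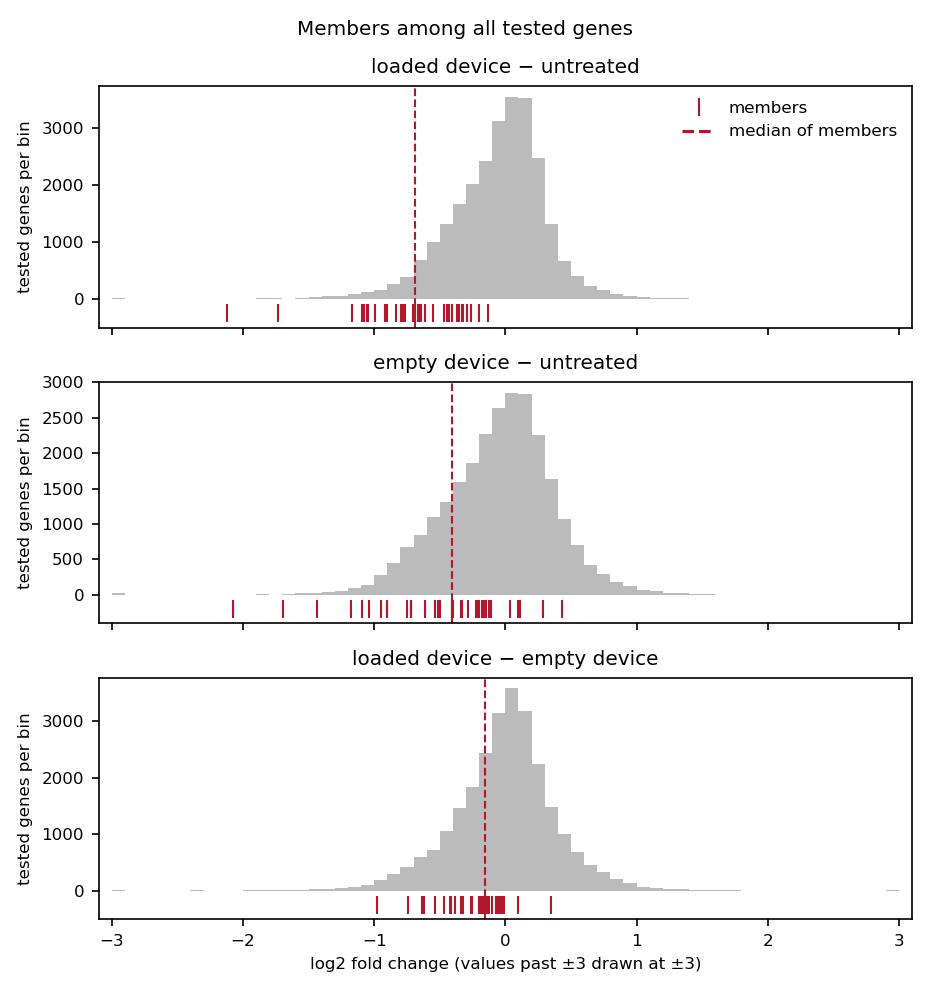
Histograms of the log2 fold changes of all 26081 tested genes in the 3 comparisons, with the 39 interferon-stimulated genes as ticks and their median as a dashed line. Values beyond the axis are drawn in the end bins. The dashed lines stand at -0.69 for the loaded device against untreated skin, -0.41 for the empty device against untreated skin and -0.15 for the loaded against the empty device.

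By promoter, the 13 members with an ISRE core had a median log2 fold change of -0.67 with the loaded device, -0.41 with the empty device and -0.15 between the devices. The 15 members with a promoter but no match had medians of -0.44, -0.18 and -0.16 in the same order of comparisons, and the 11 members without a promoter entry had -0.83, -0.54 and -0.17. Among the holders of the core, the log2 fold change with the loaded device ran from -2.12 for Ifit1 to -0.26 for Stat2. Among those without a match it ran from -1.73 for Ifi44 to -0.14 for Sp100, so the ranges overlapped over most of their length.

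The ligands of the pathway had very few counts in these libraries. None of the 19 type I and type III interferon genes in the table passed the filter on low counts. Their summed counts were 5, 12 and 6 with the loaded device, 8, 7 and 7 with the empty device, and 18, 11 and 12 in untreated skin. Interferon kappa, the type I interferon of keratinocytes, was counted 0, 4 and 4 times with the loaded device, 1, 1 and 4 times with the empty device, and 6, 8 and 7 in untreated skin. Ifnb1 (interferon beta) had 1 count, in the first empty-device library, and 7 of the genes had none in any library. A count of 0 allows a level of up to 0.0307 to 0.0365 CPM (3 counts, by library, counting error only). For interferon kappa each untreated count was above each count with either device, and the untreated sums were all above those of the empty device and overlapped those of the loaded device. No test was made on counts this low.

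Receptors and signalling genes went in both directions. Of 10, 6 fell and 2 rose with the loaded device against untreated skin, 3 fell and 5 rose with the empty device, and 6 fell and 0 rose with the loaded against the empty device, with medians of -0.16, 0.09 and -0.18. Jak1 had 159, 162 and 169 CPM with the loaded device, 218, 211 and 213 CPM with the empty device, and 190, 184 and 185 CPM in untreated skin, an order of groups shared with Trim25. Of the type I receptor pair, Ifnar2 fell with both devices, by 0.33 with the loaded and 0.38 with the empty one on the log2 scale. Ifnar1 was not called in any comparison. Ifnlr1, the receptor chain for type III interferon, rose with both devices, by 0.22 with the loaded and 0.46 with the empty one on the log2 scale. Ifngr2, a chain of the interferon-gamma receptor, fell by 0.26 with the loaded device.

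Of 19 tested genes of nucleic acid sensing upstream of interferon, 10 fell and 1 rose with the loaded device against untreated skin, with a median log2 fold change of -0.13. With the empty device 6 fell and 5 rose (median 0.04), and between devices 10 fell and 2 rose (median -0.15). Samhd1, which depletes nucleotides, had 60.3, 61.9 and 67.6 CPM with the loaded device, 114, 107 and 105 CPM with the empty device, and 121, 120 and 116 CPM in untreated skin. The loaded libraries were thus far below both other groups, at a log2 fold change of -0.91 against untreated skin and -0.78 against the empty device. Sting1, the adaptor of cytosolic DNA sensing, fell instead with both devices, by 0.74 and 0.76. Ddx58 (RIG-I) fell by 0.32 and 0.37, and Traf3, an adaptor in the path to interferon, rose by 0.26 with the loaded device. Myd88 and Trex1 were listed at 0 in every library, but other genes of the table cover 100% of the span of each, so these zeros say nothing of their expression.

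The 12 negative regulators of interferon signalling were divided, with 5 higher and 2 lower with the loaded device against untreated skin (median -0.018), 6 higher and 5 lower with the empty device (median 0.095), and 4 higher and 4 lower between devices (median -0.0023). Pias1, an inhibitor of STAT signalling, fell by 0.27 with either device, whereas its relative Pias4 rose by 0.25 with either. Between devices the extremes of this list were Socs3, at a log2 fold change of -0.48 (adjusted p = 1.25e-11), and Socs1, at 0.33 (adjusted p = 0.0462). With the empty device against untreated skin Socs3 rose by 0.40 and Socs1 fell by 0.40. Of 18 tested genes of the interferon-gamma response, 15 fell and 0 rose with the loaded device (median -0.51), 13 fell and 3 rose with the empty device (median -0.59), and 5 fell and 7 rose between devices (median 0.098). The chemokine Cxcl9 had 5.61, 5.53 and 6.96 CPM with the loaded device, 4.10, 4.07 and 4.61 CPM with the empty device, and 24.6, 20.6 and 21.2 CPM in untreated skin. It fell with both devices, and it rose with the loaded against the empty device (log2 fold change 0.50, adjusted p = 0.000512), where 18 of the 39 type I genes fell. Cxcl11 took the same order of means, with log2 fold changes of -2.47 and -3.102 against untreated skin and 0.63 between devices (adjusted p = 0.0296). So did the GTPase Irgm1, with -0.75, -0.89 and 0.14 (adjusted p = 0.0366 between devices). In both genes, unlike Cxcl9, the libraries of the 2 devices overlapped. The proteasome subunit Psmb9 fell in all 3 comparisons, by 0.59 for the loaded device against untreated skin, 0.48 for the empty device against untreated skin and 0.11 between devices.

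**Figure D5:**
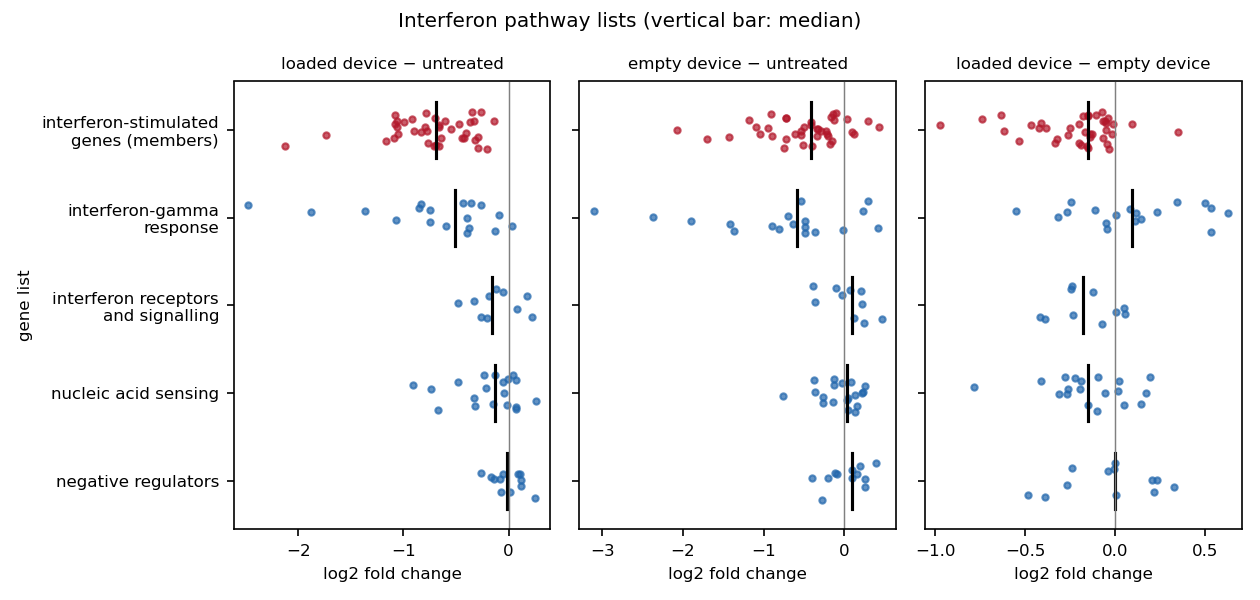
Log2 fold changes of the members and of 4 further gene lists (interferon receptors and signalling, nucleic acid sensing, negative regulators and interferon-gamma response) in the 3 comparisons, 1 point per tested gene and a bar at the median. The 3 panels have their own x axes. The interferon-gamma response has medians of -0.51 and -0.59 against untreated skin and 0.098 between the devices.

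Markers of other cell types differed between the groups too, in patterns that were not the same for each type. Of 10 T cell markers 8 fell with the loaded device and 5 with the empty one against untreated skin, and 0 rose in either. Their summed level was 27.9 to 29.6 CPM with the loaded device, 32.1 to 34.7 CPM with the empty device and 42.6 to 45.4 CPM in untreated skin. Of 10 macrophage markers 9 fell and 0 rose with the loaded device, and 7 fell and 2 rose with the empty one. The sum was 334 to 346 CPM with the loaded device, 418 to 428 CPM with the empty device and 415 to 429 CPM in untreated skin. Monocyte markers (6 genes) summed to 38.1 to 39.6, 32.7 to 34.1 and 47.8 to 51.6 CPM, and neutrophil markers (8 genes) to 16.1 to 19.4, 27.6 to 29.0 and 27.5 to 29.5 CPM, in loaded, empty-device and untreated skin. Of the 6 neutrophil markers with enough counts to be tested, 2 fell with the loaded device and 1 with the empty one. Macrophage and neutrophil sums with the empty device overlapped those of untreated skin, and the monocyte sum was lowest with the empty device. The calls of the 6 monocyte markers did not follow that sum. Against untreated skin 5 fell and 0 rose with the loaded device (median log2 fold change -0.59), and 2 fell and 0 rose with the empty one (median -0.37). Between devices 3 fell and 1 rose (median -0.28), and Vcan had the highest value, 0.59. Fibroblast markers (6 genes) summed to 637 to 657 CPM with the loaded device, 831 to 894 CPM with the empty device and 971 to 1007 CPM in untreated skin. All 8 keratinocyte markers fell with the loaded device, and with the empty device 3 rose and 4 fell.

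The list for plasmacytoid dendritic cells, strong producers of interferon, was dominated by Ly6d, which keratinocytes also express. Of its 7 tested genes, 3 fell and 1 rose with the loaded device against untreated skin, and 1 fell and 1 rose with the empty one. Between devices 3 fell and 1 rose, and the lowest log2 fold change was that of Siglech, -0.91. Siglech, the most selective gene of that list, had 0.0894, 0.153 and 0.0852 CPM with the loaded device, 0.281, 0.205 and 0.135 CPM with the empty device, and 0.194, 0.118 and 0.219 CPM in untreated skin, and was not called. Skeletal muscle markers (8 genes) summed to 5313 to 5802 CPM with the loaded device, 6764 to 7877 CPM with the empty device and 5772 to 5976 CPM in untreated skin. Against untreated skin 5 of them fell and 1 rose with the loaded device, and 1 fell and 5 rose with the empty one. Between devices 6 fell and 1 rose. Myh4 had the lowest log2 fold change with the empty device (-0.93) and the highest between devices (1.20). Each marker of these lists had at least 1 count in each group. The part that a change in cell content has in the levels of the interferon-stimulated genes was not tested.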

How the data were processed

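Per the labels' protocols, skin RNA was purified with miRNeasy (Qiagen) and its polyadenylated fraction sequenced from xGen Broad-Range (IDT) libraries. Per the submitters' processing notes, the tools were HISAT2 (alignment) and featureCounts on mm39. Versions, annotation and strand setting were not given in the sources used. Values deposited by the authors are raw counts, 1 column per library, and each gene's length equals its whole span for 99.9% of genes. Reads in introns were thus counted. Of the members, 14 overlap another gene, and near copies (Ifit3 with Ifit3b, Mx1 with Mx2, Oas and Trim30 genes) can share reads, so their counts are uncertain. The longest overlaps on the same strand are those of Herc6 with Gm45193 (45031 bases) and Rtp4 with Gm45338 (39791 bases). On the opposite strand the longest is that of Usp18 with Gm44148 (15715 bases).

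The groups come from the treatment labels. Counts were scaled with TMM factors after filterByExpr (minimum count 10, total 15) and fitted with edgeR 4.0.16 (R 4.3.3), all 9 libraries together, with the robust quasi-likelihood test and Benjamini-Hochberg adjustment over 26081 genes. The SE was taken from the F statistic, and the common biological coefficient of variation was 0.0390. Alternatives were other scalings and filters, DESeq2 1.42.0, limma-voom (limma 3.58.1), only the 2 groups compared, a replicate block, members that overlap no other gene, and leaving out each library. The steps were tested on simulated data. Members, gene lists and tests were chosen with earlier results of these data known. Values are given for all transcription factors and sensors, for the 2 largest and the smallest fold changes in each other role (loaded device against untreated, mean of at least 1 CPM), for the highest and lowest member in the other comparisons, and for up to 4 genes of each other list by p. Further genes were chosen after their values were seen. Promoters are those of RefSeq (GRCm38.p6), whose coordinates were not mixed with those of mm39. A gene of the signalling list is not reported here by name.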

Additional observations from a re-analysis of the deposited data

How the results depend on the processing

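Against untreated skin, 35 members were called lower with the loaded device in each of the 18 alternative fits, and 24 with the empty device. Between devices 14 were called lower in each of them. Scaling by library size alone moved the median of all tested genes by 0.13, 0.10 and 0.029 on the log2 scale for loaded against untreated, empty against untreated and loaded against empty, and the share of calls that were higher was 68.1%, 57.9% and 61.3% instead of 44.9%, 41.7% and 55.3%. Upper-quartile scaling gave 53% for empty against untreated and 44.4% between devices.

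The number of members called higher with the empty device, 1 in the fit reported, was 2 with DESeq2 size factors and with only the 2 groups compared, and 3 with upper-quartile scaling, library size alone and the stricter filter. Members lower with the empty device, 30 in the fit reported, were 25 with upper-quartile scaling and 24 with library size alone, and those lower between devices, 18 in the fit reported, were 24 with upper-quartile scaling and with the stricter filter and 16 with library size alone. The median log2 fold change with the empty device was -0.336 with upper-quartile scaling, -0.303 with library size alone and -0.498 over the 25 members that overlap no other gene. With the loaded device it was -0.554 with library size alone. Of these 25 members, 25 fell with the loaded device, 18 with the empty device and 10 between devices. The causes were not tested, beyond the smaller number of members in the last set.

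Leaving out 1 library at a time gave 37 to 39 members lower with the loaded device, 25 to 30 lower and 1 to 2 higher with the empty device, and 15 to 21 lower between devices. The medians ran from -0.699 to -0.623, -0.432 to -0.363 and -0.192 to -0.114. Calls with the empty device were lost for Ifit3b in 12 of the 18 alternatives, Irf9 in 8, Stat2 in 7, Ifit3 in 5, Irf7 in 4 and Ifih1 in 1. Between devices, calls lost in at least 1 alternative were those of Ifi27, Ifit3b, Trim30a and Xaf1. With the empty device Ifit3 was lost without empty-device replicate 3 or untreated replicate 1 (adjusted p = 0.103 and 0.126). Between devices Ifi27 was lost without empty-device replicate 2 (0.0588), and Trim30a without it (0.0961) or loaded-device replicate 1 or 2 (0.079 and 0.132). Xaf1 was lost in 11 of the 18 alternatives, 7 of which left out a library. Samd9l and Irf7, not called between devices in the fit reported, were called lower in 10 of 18 alternatives each, Oas3 in 5, Cmpk2 and Oas1a in 3 each, Parp12 in 2 and Ddx60 in 1. Some values that were not called changed sign. Between devices, with library size alone, Oasl2 was at 0.020 and Rsad2 at 0.015. Between devices, leaving out 1 library gave -0.076 to 0.040 for Oasl2, -0.104 to 0.052 for Rsad2, -0.144 to 0.052 for Zbp1, -0.123 to 0.059 for Ifi44 and -0.185 to 0.038 for Herc6. With the empty device it gave -0.046 to 0.123 for Mx1 and -0.011 to 0.160 for Epsti1.

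Replicate numbers did not pair the libraries: deviations of libraries with the same number correlated at -0.0986 to 0.0970 over 9 pairs. With the replicate number as a block, 38, 30 and 19 members fell and 0, 1 and 1 rose in the 3 comparisons. Between devices the block called Samd9l (0.0452) and Irf7 (0.0476) and lost Xaf1 (0.0567).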
